A study of Mus musculus with 6 samples.

Results

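The genes described here belong to the purinergic system, by which cells signal with extracellular ATP, ADP and adenosine. They are 3 receptors for ATP or ADP (P2rx7, P2rx4 and P2ry1), 3 adenosine receptors (Adora1, Adora2a and Adora2b) and 3 ectonucleotidases (Entpd1, Entpd2 and Nt5e). They were chosen by name, as 9 of the 21959 genes in the deposited table, and each name matched 1 row. The tissue, labelled as brain, was the paraventricular thalamus (PVT), a nucleus at the thalamic midline, and its RNA was sequenced in bulk. Chronic constriction injury (CCI) produces lasting pain by tying loose ligatures around a peripheral nerve. The 3 CCI libraries (replicates 1 to 3) came from wild-type (WT) mice given CCI, and the 3 control libraries (replicates 4 to 6) came from WT mice with no treatment, so the controls had no sham operation by their labels. Each group had 30 mice by the design text, and their division over the libraries was not stated. Strain, age, sex and time after injury were not given in the sources used here, and the p-values rest on the variation among these libraries alone, part of which may be technical.

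ATP released from glia and neurons opens P2X channels and activates P2Y receptors. Ectonucleotidases on the cell surface then degrade it stepwise: NTPDases such as those of Entpd1 and Entpd2 remove phosphates from ATP and ADP, and the 5'-nucleotidase encoded by Nt5e makes adenosine from AMP. Adenosine acts on A1 receptors, which lower cyclic AMP and dampen transmitter release, and on the receptors of Adora2a and Adora2b, which raise cyclic AMP. In the spinal cord this system is known for glial P2X signalling in neuropathic pain and for the pain-relieving action of adenosine at A1 receptors.

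In CCI, transcripts of the ATP-gated channel P2rx7 and of the ectonucleotidases Entpd2 and Nt5e rose 4.12-fold, 3.57-fold and 2.59-fold. The other 6 genes did not pass the test, and none fell (edgeR), although Entpd1 was lower at an unadjusted p of 0.039. Genes were tested with edgeR's quasi-likelihood test on the deposited counts, with Benjamini-Hochberg adjustment over all 14259 genes tested and a threshold of 0.05. Of the 9 genes, all of which were tested, 3 passed as higher and 0 as lower, against a background of 27.0% of tested genes higher and 25.3% lower in CCI, so the number that passed was near the background. Their median log2 fold change was -0.04, against 0.06 over all tested genes. The CPM values (counts scaled to library size with TMM factors) of the 3 CCI libraries lay entirely above those of the 3 control libraries for 4 of the 9 genes (background 33.6% of tested genes) and entirely below for 0 (background 29.4%). In either direction the background was 52.3% of tested genes passing and 63.0% not overlapping.

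Total counts were 7989139 to 10529886 in CCI libraries and 12337448 to 15438268 in control libraries. Control replicate 5 stood apart, with correlations of 0.973 and 0.976 on log2(FPKM + 1) with the other controls, which correlated at 0.995, and results for the 9 genes whose calls change without it are given both ways. Scaling also mattered. CCI libraries had TMM factors of 1.21 to 1.25 and control libraries 0.686 to 0.90. When limma was run on log2(FPKM + 1) instead, fold changes of the shared genes lay 0.51 (log2) higher at the median, and 84.1% of the genes that passed were higher in CCI, against 51.6% with TMM. The tissue also differed in its cell type markers. All 9 thalamic neuron markers were detected in every library, but 8 fell and 1 rose, and their summed level was 1610 to 2310 CPM in CCI and 5430 to 8220 CPM in control. Of them 5 fell on log2(FPKM + 1) (background 1315 of 17958 genes). Corrected for length, GC content and mean expression 2 fell (background 2290 of 14220 genes) and 0 rose. Of 7 habenula markers 4 fell and none rose (0 to 5 fell over the alternatives). Of 9 tested hippocampal and cortical neuron markers 6 rose and 1 fell, with a median log2 fold change of 2.21. Their sums overlapped, at 351 to 382 CPM in CCI and 315 to 460 CPM in control. In CCI, Neurod6 was at 4.21, 3.47 and 57.6 CPM, so high in replicate 3 alone. Of 10 oligodendrocyte markers 7 rose and none fell, with sums of 12500 to 16300 CPM in CCI and 5550 to 13100 CPM in control. Of 10 oligodendrocyte precursor markers 7 rose and none fell, with sums of 535 to 679 CPM in CCI and 171 to 188 CPM in control. Bcas1 was the most abundant of them, at 314, 345 and 375 CPM in CCI and 61.4, 87.2 and 53.4 CPM in control. Pdgfra, the defining receptor gene of these precursors, had a log2 fold change of 0.03 ± 0.17 (SE). It did not pass, nor did Olig2 (0.22 ± 0.3) and Neu4 (0.15 ± 0.33). The part of these markers in the values of the 9 genes was not tested, and in bulk tissue fewer cells of a type and less RNA per cell cannot be told apart.

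Promoter sequences of the 3 genes that rose are shown with those of P2rx4, the neighbour of P2rx7 on its chromosome, and of Entpd1, the relative of Entpd2, so that genes that passed stand beside close relatives that did not. They are RefSeq windows on GRCm38.p6, from 250 bases before to 50 after the transcription start, written 5′ to 3′ on the gene's plus strand. The windows are chr5:122643677-122643976 for P2rx7 (the upstream of 2 annotated starts), chr2:25395624-25395923 for Entpd2, chr9:88327359-88327658 for Nt5e, chr5:122707294-122707593 for P2rx4 and chr19:40612116-40612415 for Entpd1 (the upstream of 2). The Nt5e window lies wholly downstream of the Nt5e gene start in GENCODE M21, 88327197 on GRCm38. Capitals mark matches on either strand to GGGCGG, the GC box, and to TGANTCA, the AP-1 site.
P2rx7: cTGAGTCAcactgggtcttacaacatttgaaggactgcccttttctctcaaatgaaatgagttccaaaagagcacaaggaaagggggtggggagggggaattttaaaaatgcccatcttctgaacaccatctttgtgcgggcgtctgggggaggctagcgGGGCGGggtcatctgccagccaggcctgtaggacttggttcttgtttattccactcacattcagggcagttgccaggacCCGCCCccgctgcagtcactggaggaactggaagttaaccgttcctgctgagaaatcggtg
Entpd2: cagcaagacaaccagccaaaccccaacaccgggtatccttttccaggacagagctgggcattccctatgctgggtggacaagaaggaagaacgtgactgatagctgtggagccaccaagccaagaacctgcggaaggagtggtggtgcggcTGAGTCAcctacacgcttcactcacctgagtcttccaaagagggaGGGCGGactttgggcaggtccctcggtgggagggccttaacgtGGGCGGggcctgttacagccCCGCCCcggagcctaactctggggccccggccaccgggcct
Nt5e: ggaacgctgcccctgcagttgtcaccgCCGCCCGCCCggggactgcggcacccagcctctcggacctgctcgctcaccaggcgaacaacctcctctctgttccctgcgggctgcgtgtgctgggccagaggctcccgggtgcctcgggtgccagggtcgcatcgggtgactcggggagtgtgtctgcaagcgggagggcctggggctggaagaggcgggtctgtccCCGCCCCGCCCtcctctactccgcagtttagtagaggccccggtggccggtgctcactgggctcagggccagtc
P2rx4: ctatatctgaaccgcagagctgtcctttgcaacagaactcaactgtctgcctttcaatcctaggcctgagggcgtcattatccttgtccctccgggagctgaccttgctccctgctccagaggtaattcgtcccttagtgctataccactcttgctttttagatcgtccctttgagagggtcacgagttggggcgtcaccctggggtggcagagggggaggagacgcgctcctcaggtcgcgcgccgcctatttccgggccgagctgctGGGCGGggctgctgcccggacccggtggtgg
Entpd1: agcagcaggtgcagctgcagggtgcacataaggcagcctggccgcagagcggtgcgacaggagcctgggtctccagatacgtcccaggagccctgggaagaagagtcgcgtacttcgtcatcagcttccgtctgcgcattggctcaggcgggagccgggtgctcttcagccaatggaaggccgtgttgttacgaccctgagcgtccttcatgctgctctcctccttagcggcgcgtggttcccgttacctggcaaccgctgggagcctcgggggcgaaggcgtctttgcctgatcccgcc

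TGANTCA was found once in the P2rx7 window, 249 bases before the start, and once in the Entpd2 window, 99 bases before it, and not in the other 3 windows shown. Over the 11 windows that RefSeq gave for 8 of the 9 genes it was found in 3, the third being the upstream window of Adora1, and it was present in 7.81% of all 32851 promoter windows of the same length. GGGCGG, counted with overlaps between matches, occurred 2 times in the P2rx7 window, 3 times in Entpd2, 4 times in Nt5e, 1 time in P2rx4 and 0 times in Entpd1, and was present in 35.7% of all windows. TATAAA was found in 0 of the 11 windows and in 13.6% of all windows. The P2rx7 window held 8 CpG dinucleotides, close to the median of 7 over all windows, against 13 in Entpd2, 18 in P2rx4, 23 in Nt5e and 23 in Entpd1. These matches describe the sequences alone.

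P2rx7 (ENSMUSG00000029468, chromosome 5, 122781974 to 122829495, plus strand, on GRCm39 as for all gene positions that follow) encodes the P2X7 channel, which needs high ATP to open and is known for driving release of interleukin-1 from microglia. Its level per transcript length was 2.85, 2.66 and 3.48 FPKM in the CCI libraries, against 0.619, 0.353 and 0.488 FPKM in the control libraries. The lowest CCI library was thus far above the highest control library. The counts behind these levels were 136, 144 and 219 in CCI and 46, 26 and 45 in control. On the CPM scale the level was 14.5 ± 2.03 in CCI and 3.51 ± 0.532 in control (SD, n = 3 each), and the log2 fold change was 2.04 ± 0.24 (SE, edgeR adjusted p = 0.000337). The gene passed in each of 15 alternative settings, at log2 fold changes from 1.43 on log2(FPKM + 1) to 2.42 on log2(FPKM + 0.1). The counts are per gene and do not separate its splice forms. Oligodendrocyte precursors and microglia are known to carry P2X7 in brain, and the part of their marker levels in this value was not tested.

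P2rx4 (chromosome 5, 122845607 to 122867801, plus strand) encodes the more ATP-sensitive P2X4 channel, known in spinal microglia for its part in pain hypersensitivity after nerve injury. It lies 16111 bp downstream of P2rx7, with no other gene of the table between them. Its level was 7.64, 6.68 and 8.61 FPKM in CCI and 6.79, 3.31 and 6.92 FPKM in control. The groups overlapped, with control replicate 5 the lowest of all 6 libraries. The log2 fold change was -0.13 ± 0.21 (SE, edgeR adjusted p = 0.63), and without control replicate 5 it was -0.35, which passed (edgeR adjusted p = 0.0438). The sign depended on scaling. The log2 fold change was 0.42 on log2(FPKM + 1), equal to the median log2 fold change of 0.42 in that fit. With mean expression, GC content and coding length corrected for it was 0.36, and neither passed.

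The ratio of P2rx7 to P2rx4 within a library does not depend on scaling between libraries. It was 0.373, 0.399 and 0.405 in CCI and 0.0911, 0.107 and 0.0706 in control, from FPKM values. The 3 CCI ratios were close to each other and lay well above the 3 control ratios. The geometric mean ratio was 4.44-fold higher in CCI, a difference of 2.15 on the log2 scale (two-sided exact permutation test, p = 0.1, the smallest that 3 against 3 libraries allow). Over the 4 ratios tested the adjusted value was 0.133. Genes around the pair, taken by position after their values were seen, had log2 fold changes of -0.16 ± 0.18 (Ift81, the gene upstream of P2rx7) and 0.18 ± 0.27 (Camkk2, the gene downstream of P2rx4), and neither passed. Farther out, Atp2a2 (-1.13 ± 0.22, edgeR adjusted p = 0.00329) and Anapc7 (-0.79 ± 0.17, edgeR adjusted p = 0.00471) upstream and Rnf34 (-0.72 ± 0.17, edgeR adjusted p = 0.00735) downstream fell, and Anapc5 downstream did not pass (0.16 ± 0.26).

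P2ry1 (chromosome 3, 60910216 to 60916403, plus strand) encodes the ADP receptor P2Y1, which is coupled to calcium release and is known from astrocyte calcium waves. Its level was 1.23, 0.901 and 0.974 FPKM in CCI and 1.01, 0.699 and 0.815 FPKM in control, so the groups overlapped. P2ry1 had a log2 fold change of -0.29 ± 0.26 (SE, edgeR adjusted p = 0.37). It passed in none of the 15 alternative settings, where it ranged from -0.42 to 0.27. P2rx7 stood above P2ry1 in all 3 CCI libraries and below it in all 3 control libraries on the FPKM scale.

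**Figure D1:**
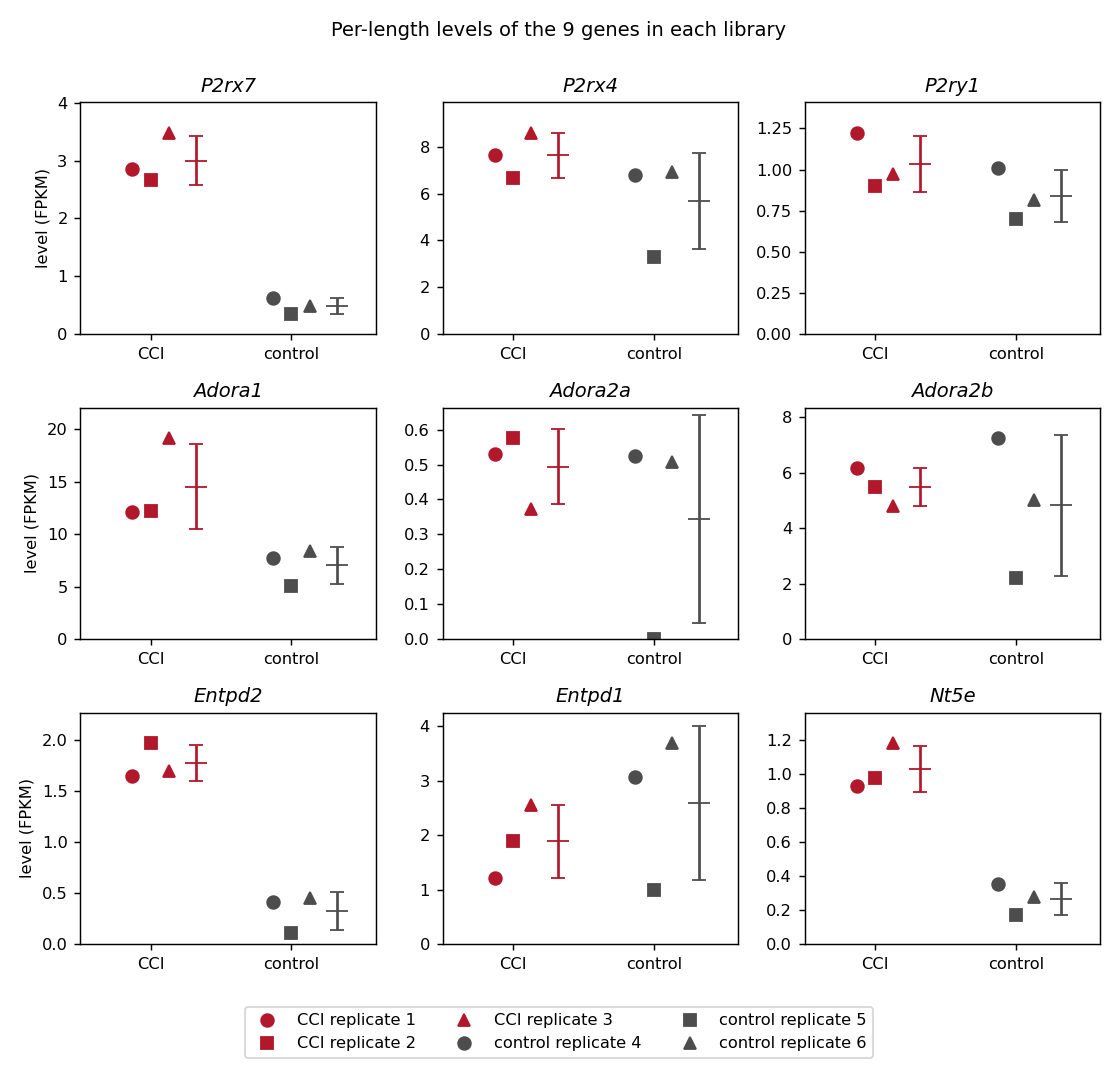
Levels in FPKM (vertical axes, from 0) of the 9 genes in each CCI and control library, with the group mean and SD beside the points. P2rx7, Entpd2 and Nt5e lay higher in all CCI libraries, as did Adora1, which did not pass the edgeR test. Control replicate 5 was the lowest control library in every panel.

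Of the 3 ectonucleotidases 2 rose and Entpd1 did not pass. Entpd2 (chromosome 2, 25285886 to 25291333, plus strand) encodes NTPDase2, which removes 1 phosphate from ATP and acts only weakly on ADP. Its level was 1.65, 1.97 and 1.70 FPKM in CCI, against 0.415, 0.114 and 0.457 FPKM in control. All CCI libraries were above all control libraries. The counts were low, 28, 38 and 38 in CCI and 11, 3 and 15 in control. The log2 fold change was 1.84 ± 0.42 (SE, edgeR adjusted p = 0.00647). It passed in all 14 alternative settings that tested it, from 1.07 to 2.24, and the filter asking for 10 counts in every library left it out. Entpd2 overlaps Npdc1 on the same strand. Npdc1 had 3214 counts in CCI and 2193 in control and a log2 fold change of 0.55 ± 0.24 (SE, edgeR adjusted p = 0.079), and its part in the Entpd2 value was not tested.

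Entpd1 (chromosome 19, 40600810 to 40730046, plus strand) encodes NTPDase1, known as CD39, which takes ATP and ADP down to AMP and marks microglia and blood vessels in brain. Its level was 1.21, 1.90 and 2.55 FPKM in CCI and 3.07, 1.0 and 3.69 FPKM in control. Control replicate 5 was the lowest library and the other 2 controls were the highest, so the groups overlapped. The log2 fold change was -0.99 ± 0.41 (SE, edgeR adjusted p = 0.0693). Without control replicate 5 it was -1.33 and passed (edgeR adjusted p = 0.00165), and it also passed in the DESeq2 Wald test with all libraries (-1.04, adjusted p = 0.0287), the single gene of the 9 to pass as lower there (background 28.1%). On log2(FPKM + 1) it was -0.25, also lower in CCI. Of 13 microglia markers 6 rose and 1 fell, with sums of 237 to 332 CPM in CCI and 299 to 345 CPM in control, and of 9 endothelial markers 2 rose and 1 fell, with sums of 226 to 251 CPM in CCI and 255 to 269 CPM in control. These counts were not stable: with 1 library left out 1 to 7 microglia markers and 0 to 2 endothelial markers rose. On log2(FPKM + 1) 10 microglia markers rose (background 38.6% of tested genes). The part of both marker lists in the Entpd1 value was not tested.

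Nt5e (chromosome 9, 88209250 to 88254145, plus strand) encodes CD73, the surface enzyme that makes adenosine from AMP. Its level was 0.931, 0.976 and 1.18 FPKM in CCI, against 0.355, 0.170 and 0.279 FPKM in control. The lowest CCI library exceeded the highest control library by more than the range within either group. In CPM the level was 7.20 ± 0.943 in CCI and 2.76 ± 0.632 in control (SD, n = 3 each), a log2 fold change of 1.37 ± 0.28 (SE, edgeR adjusted p = 0.0037). It passed in all 15 alternative settings, at 0.68 to 1.65.

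Ratios between these enzymes were also taken within libraries. The ratio of Entpd2 to Entpd1 was 1.36, 1.04 and 0.664 in CCI and 0.135, 0.114 and 0.124 in control, from FPKM values. Entpd2 was thus at a level like that of Entpd1 in CCI and far below it in control. The geometric mean ratio was 7.89-fold higher in CCI, a log2 difference of 2.98. The ratio of Nt5e to Entpd1 was 0.769, 0.514 and 0.463 in CCI and 0.116, 0.169 and 0.0755 in control, 4.98-fold higher in CCI (a log2 difference of 2.32). For both, the groups did not overlap and the two-sided exact permutation test gave p = 0.1, the smallest possible (0.133 adjusted over 4 ratios).

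**Figure D2:**
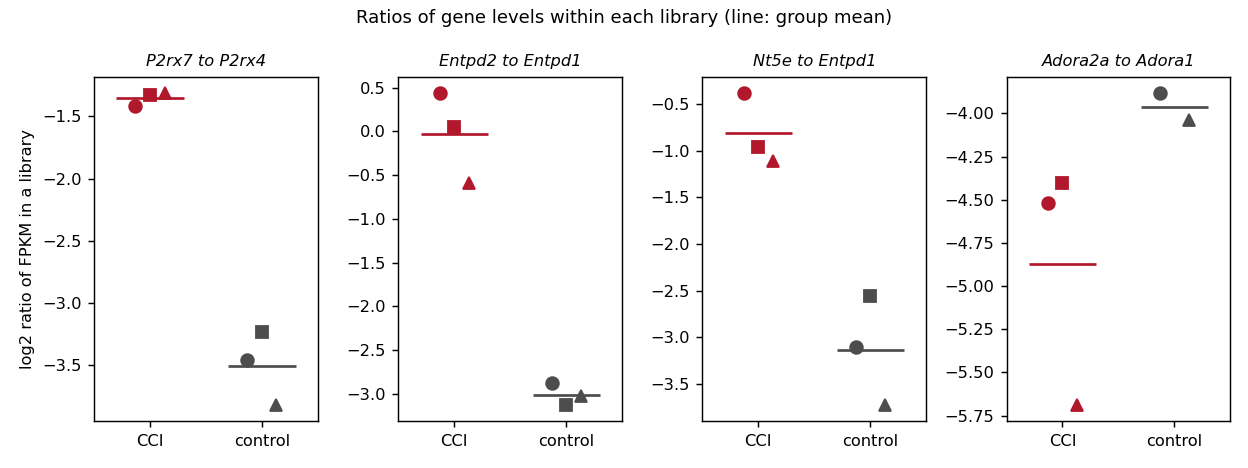
Log2 ratio of FPKM between pairs of genes in the same library (vertical axes), by group, with points for libraries and lines for group means. The first 3 ratios lay higher in every CCI library; control replicate 5 has no point for Adora2a to Adora1, since Adora2a had 0 counts there.

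None of the 3 adenosine receptors passed the edgeR test, also at an unadjusted p under 0.05. Adora1 (chromosome 1, 134126961 to 134163169, minus strand) encodes the A1 receptor, the main inhibitory adenosine receptor of brain, and was the most abundant of the 9 genes in both groups. Its level was 12.2, 12.2 and 19.2 FPKM in CCI and 7.72, 5.04 and 8.38 FPKM in control. CCI libraries lay above control libraries on this scale and, narrowly, in CPM (56.3, 58.3 and 90.1 in CCI and 49.6, 42.6 and 56.0 in control). The log2 fold change was 0.47 ± 0.22 (SE, edgeR adjusted p = 0.099), and CCI replicate 3 weighed on it: without that library it was 0.21 (edgeR adjusted p = 0.378). On log2(FPKM + 1), where limma passed it (adjusted p = 0.0177), it was 0.94, against a median log2 fold change of 0.42 in that fit. Corrected for GC content and coding length it was 0.78 (edgeR adjusted p = 0.0172), and 1.05 when mean expression was also corrected for (edgeR adjusted p = 0.0058). In these 2 fits and on both FPKM scales 4 of the 9 genes passed as higher, against backgrounds of 23.5% and 22.3% of the genes tested in the corrected fits, 38.6% on log2(FPKM + 1) and 38.5% on log2(FPKM + 0.1). Adora1 was higher in CCI in every setting and passed in 4 of 15. The gene overlaps Mybph on the opposite strand, which had 7 counts in CCI and 8 in control.

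Adora2a (chromosome 10, 75152711 to 75170618, plus strand) encodes a receptor that raises cyclic AMP and is concentrated in striatal neurons. It had the fewest counts of the 9 genes over CCI libraries: 13, 16 and 12 in CCI and 20, 0 and 24 in control. Levels were 0.531, 0.577 and 0.372 FPKM in CCI and 0.524, 0 and 0.508 FPKM in control, and the count of 0 in control replicate 5 allows up to 0.0794 FPKM (3 counts in that library, counting error alone). The log2 fold change was -0.04 ± 0.74 (SE, edgeR adjusted p = 0.967) with a wide error, the control libraries holding both the lowest and the highest CPM values (1.78, 0 and 1.80). It was -0.57 without control replicate 5 and 0.34 without control replicate 6, and neither passed. Of 11 striatal neuron markers 3 rose and none fell, with sums of 246 to 308 CPM in CCI and 193 to 248 CPM in control. On log2(FPKM + 1) 7 of them rose (background 38.6% of tested genes), and 1 to 3 rose with 1 library left out. The ratio of Adora2a to Adora1 could be taken in 3 CCI libraries (0.0437, 0.0473 and 0.0194) and 2 control libraries (0.0680 and 0.0606). These 3 CCI ratios were below these 2 control ratios, with a log2 difference of -0.91 (two-sided exact permutation test, p = 0.2, the smallest possible). In control replicate 5 the ceiling of 3 counts puts the ratio at no more than 0.0157, below every CCI ratio. With all 6 libraries and a pseudocount of 0.1 FPKM the difference was -0.23 (two-sided exact permutation test, p = 0.6).

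Adora2b (chromosome 11, 62139810 to 62157279, plus strand) encodes the A2B receptor, a low-affinity receptor found in astrocytes and vessels. Its level was 6.17, 5.51 and 4.79 FPKM in CCI and 7.27, 2.2 and 5.02 FPKM in control. The CCI values lay within the control range. Adora2b had a log2 fold change of -0.36 ± 0.33 (SE, edgeR adjusted p = 0.372), and without control replicate 5 it was -0.66 and passed (edgeR adjusted p = 0.0219). On log2(FPKM + 1) its sign turned, at 0.25. Without control replicate 5, P2rx4, Adora2b and Entpd1 all passed as lower, 3 of 9 genes, against a background of 30.5% of the genes tested in that fit, and the same 3 genes that rose with all libraries passed as higher (background 31.5%).

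By share within a library, Adora1 made up 63.7%, 65.9% and 78.3% of adenosine receptor FPKM in CCI and 49.4%, 69.5% and 60.1% in control, with Adora3 included in the sum. Adora2b made up 32.3%, 29.7% and 19.5% in CCI and 46.5%, 30.2% and 36.0% in control. Both sets of shares overlapped. Adora2a and Adora3 together took the small remainder in every library, Adora3 at 0.726% to 1.28% in CCI and 0.249% to 0.689% in control.

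**Figure D3:**
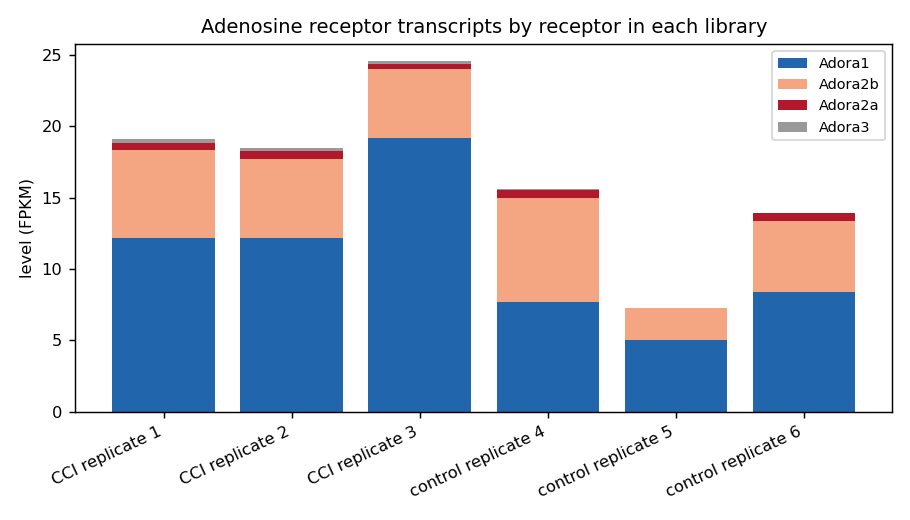
Level in FPKM (vertical axis) of the 4 adenosine receptor genes, stacked, in each library (horizontal axis). Adora1 and Adora2b made up most of each bar, and the bar of control replicate 5 was the shortest at 7.26 FPKM.

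The order of levels on the FPKM scale was the same in both groups for the first 3 genes. In CCI the order was Adora1, P2rx4, Adora2b, P2rx7, Entpd1, Entpd2, P2ry1, Nt5e and Adora2a. In control it was Adora1, P2rx4, Adora2b, Entpd1, P2ry1, P2rx7, Adora2a, Entpd2 and Nt5e. In CCI the ranges of neighbours in this order overlapped between Entpd1 and Entpd2 and between P2ry1 and Nt5e alone. In control all neighbours overlapped except P2ry1 and P2rx7. P2rx7 had rank 4 at 3.0 ± 0.430 FPKM in CCI and rank 6 at 0.487 ± 0.133 FPKM in control (SD, n = 3 each).

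**Figure D4:**
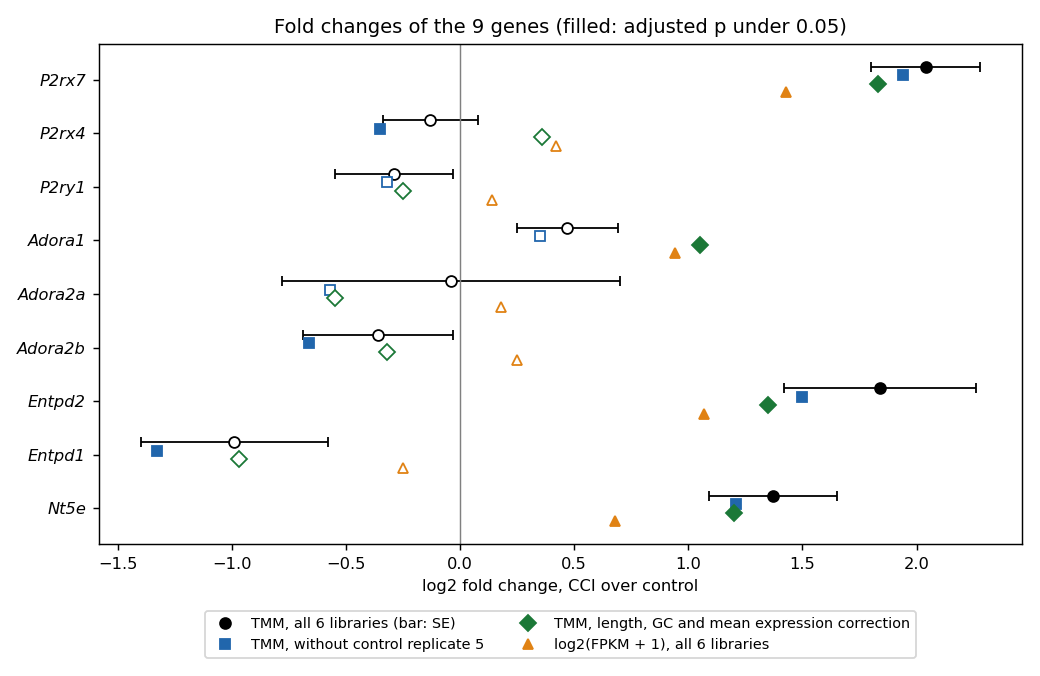
Log2 fold change of CCI over control (horizontal axis) for each gene under 4 of the settings, with filled markers for an adjusted p under 0.05 and bars for the SE with all libraries. P2rx7, Entpd2 and Nt5e were filled in all 4 settings, while P2rx4, P2ry1, Adora2a and Adora2b lay on both sides of 0.

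Genes whose profile over the 6 libraries was most like that of each gene that rose were named by the smallest root mean square difference of centred log2 CPM. For P2rx7 they were Adamts4 (0.025), Stim1 (0.049) and Pxn (0.076), with log2 fold changes of 1.96, 1.91 and 2.23. For Entpd2 they were Cep152 (0.064), Ap2a1 (0.092) and Pak6 (0.103). For Nt5e they were Trp53inp2 (0.050), Mapk8ip3 (0.066) and Slc8a3 (0.070).

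Around these genes, 60 others of the pathway were examined in 8 lists, of which 44 genes were tested, 6 rose and 9 fell. Both shares were below the background of 27.0% higher and 25.3% lower over all tested genes. Median log2 fold changes, against 0.06 over all tested genes, were 1.07 for P2X channels, -0.18 for P2Y receptors, -0.06 for nucleotide-hydrolysing enzymes, -0.24 for adenosine uptake and metabolism, -0.13 for ATP release, 0.58 for the inflammasome genes and 0.27 for cyclic AMP coupling. Among the other P2X channels 1 of 3 tested rose, P2rx6, an atypical subunit that rarely forms channels alone, at 5.50 ± 0.510 CPM in CCI and 2.05 ± 1.41 CPM in control (SD, n = 3 each). Its log2 fold change was 1.40 ± 0.43 (SE, edgeR adjusted p = 0.0248), and the call was lost without any 1 of the CCI libraries or control replicate 6 (edgeR adjusted p from 0.054 to 0.0802). Of 4 tested P2Y receptors none passed, also at an unadjusted p under 0.05. The microglial ADP receptor P2ry12 was at 30.7 ± 8.0 CPM in CCI and 34.6 ± 0.822 CPM in control (SD, n = 3 each), with a log2 fold change of -0.17 ± 0.20. Of 8 other nucleotide-hydrolysing enzymes 1 rose, Enpp3 (1.26 ± 0.42, edgeR adjusted p = 0.0342), at 57 counts in CCI and 23 in control. That call was lost when any 1 library except control replicate 4 was left out (edgeR adjusted p from 0.072 to 0.119), and corrected for length, GC content and mean expression Enpp3 was at 0.44 (edgeR adjusted p = 0.423). Without control replicate 5 no gene of that list rose and 2 fell, Entpd3 (-0.73, edgeR adjusted p = 0.0188) and Entpd6 (-0.40, edgeR adjusted p = 0.0176). Adora3 had 22 counts in CCI and 8 in control and was too low to test, and Entpd4, which has a near-identical copy in the mouse genome, was listed with 0 counts.

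Of 13 tested genes of adenosine uptake and metabolism 2 rose and 5 fell, close to the background in total (52.3% of tested genes passed in either direction). In limma on log2(FPKM + 1), of 15 genes of this list tested, 3 passed as higher (background 38.6%) and 1 as lower (background 1315 of 17958 genes). The adenosine kinase gene Adk, whose enzyme clears adenosine in astrocytes, was at 113 ± 19.7 CPM in CCI and 292 ± 51.3 CPM in control (SD, n = 3 each), a log2 fold change of -1.37 ± 0.21 (SE, edgeR adjusted p = 0.00101). Corrected for length, GC content and expression level it was at -0.27 and did not pass. Of 13 astrocyte markers 2 rose (Gfap and Aqp4), 4 fell (Aldoc, Gja1, Gjb6 and Ntsr2) and 7 did not pass. Their sums were 3990 to 4680 CPM in CCI and 8790 to 11500 CPM in control. Aldoc alone was at 1060, 1330 and 953 CPM in CCI and 4720, 6240 and 5040 CPM in control. Slc1a2, also abundant, had a log2 fold change of -0.08 ± 0.25. On log2(FPKM + 1) 5 of the markers rose (background 38.6%) and 3 fell (background 1315 of 17958 genes). The part of these markers in the Adk value was not tested. The equilibrative nucleoside transporter gene Slc29a1 fell by 1.39 ± 0.26 (log2, edgeR adjusted p = 0.00289; -0.68 on log2(FPKM + 1), where it did not pass), and the cytosolic nucleotidase gene Nt5c fell by 0.90 ± 0.24 (edgeR adjusted p = 0.0129), a call lost without CCI replicate 3 (edgeR adjusted p = 0.0563). Nt5c was at -0.25 on log2(FPKM + 1) (limma adjusted p = 0.261) and at -0.37 corrected for length, GC content and mean expression (edgeR adjusted p = 0.279). Slc29a3, a nucleoside transporter of lysosomes, rose by 1.32 ± 0.19 on the log2 scale (edgeR adjusted p = 0.000728). Slc28a3, a concentrative transporter, rose by 1.45 ± 0.42 (log2, edgeR adjusted p = 0.0193), a call lost when control replicate 6, CCI replicate 1 or CCI replicate 3 was left out (edgeR adjusted p from 0.0603 to 0.0772), and it was at 0.82 corrected for length, GC content and mean expression (edgeR adjusted p = 0.129).

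Of 4 tested genes linked to ATP release 1 rose and 2 fell. Lrrc8a, the core subunit of volume-regulated anion channels, was at 238 ± 31.7 CPM in CCI and 840 ± 31.5 CPM in control (SD, n = 3 each), a log2 fold change of -1.82 ± 0.19 (SE, edgeR adjusted p = 0.000267). The pannexin gene Panx1, whose channel is known as a partner of P2X7, was at -0.86 ± 0.31 (edgeR adjusted p = 0.0421), and the call was lost when control replicate 4 or 6 or CCI replicate 1 or 2 was left out (edgeR adjusted p from 0.106 to 0.138). Panx1 was at -0.17 on log2(FPKM + 1) (limma adjusted p = 0.627) and at -0.53 corrected for length and GC content (edgeR adjusted p = 0.187). Calhm2 rose by 1.81 ± 0.42 (log2, edgeR adjusted p = 0.00734) from low counts, 59 in CCI and 16 in control. Of the inflammasome genes downstream of P2X7, the adaptor gene Pycard rose by 1.33 ± 0.23 (log2, edgeR adjusted p = 0.00186), at 16.0 ± 1.91 CPM in CCI and 6.43 ± 1.33 CPM in control (SD, n = 3 each). It was 1 of 3 tested genes of that list. Gsdmd (0.58 ± 0.47) and Il18 (-0.34 ± 0.23) did not pass, and Nlrp3 (22 counts in CCI, 6 in control), Casp1 (18 in CCI, 20 in control) and Il1b (6 in CCI, 3 in control) were too low to test.

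Of 9 genes that couple adenosine receptors to cyclic AMP, none rose and 2 fell, while Gnao1 and Adcy5 were higher at unadjusted p of 0.0411 and 0.0404 (edgeR). This count depended on the processing. With length and GC content corrected, 3 passed as higher (background 23.5%) and 4 as lower (background 3043 of 14220 genes). On log2(FPKM + 1), 6 passed as higher (background 38.6%) and 2 as lower (background 1315 of 17958 genes). Adcy5 turned round, passing as lower in the corrected fit (-0.51, edgeR adjusted p = 0.0228) and as higher on log2(FPKM + 1) (0.88, limma adjusted p = 0.0126). Gnao1 passed as higher without control replicate 5 (0.32, edgeR adjusted p = 0.0483) and on log2(FPKM + 1) (0.95, limma adjusted p = 0.0055). It also passed corrected for length and GC content (0.81, edgeR adjusted p = 0.00417), and with mean expression added (1.43, edgeR adjusted p = 0.000785). The 2 that fell were the inhibitory G protein genes Gnai1 (-2.12 ± 0.24, edgeR adjusted p = 0.000314) and Gnai3 (-2.02 ± 0.17, edgeR adjusted p = 0.000181). Gnai1 was at 77.4 ± 16.9 CPM in CCI and 336 ± 78.1 CPM in control (SD, n = 3 each). The third inhibitory gene, Gnai2, had a log2 fold change of 0.36 ± 0.17, which did not pass (edgeR adjusted p = 0.0966). It passed as higher on log2(FPKM + 1), at 0.89, corrected for length and GC content, at 0.68, and with mean expression added, at 0.92.

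**Figure D5:**
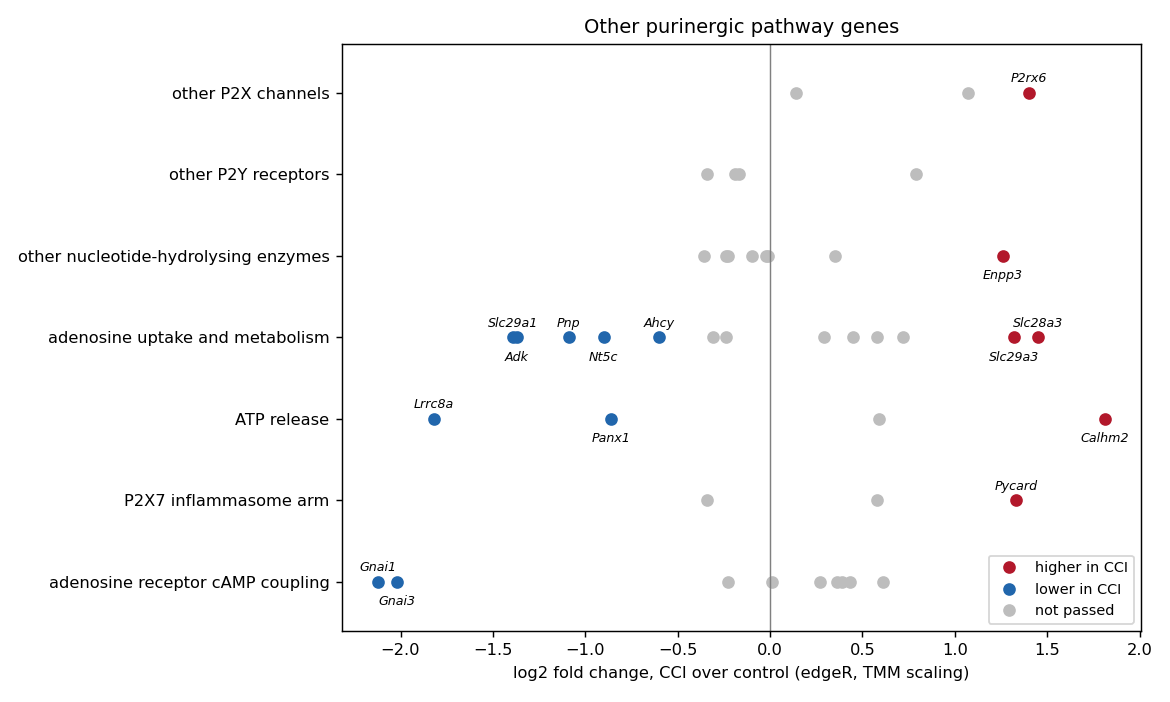
Log2 fold change of CCI over control (horizontal axis) of the 44 tested pathway genes outside the 9, by list (rows), 1 point per gene. The 6 genes that rose and the 9 that fell are named. In adenosine uptake and metabolism 5 fell, 2 rose and 6 did not pass.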

How the data were processed

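Bulk RNA sequencing was made of 3 CCI and 3 control libraries. Per the submitters' processing notes, the tools and build were StringTie 2.2.1, HISAT2 2.1.0, fastp 0.22.0, DESeq 1.38.3, HTSeq 0.9.1 and GRCm39, with no strand setting given in the sources used here. The authors deposited, per the file headers, whole-number read counts and FPKM values per gene and library. FPKM was checked to equal the count over Length and column total, to within 1e-06. Of 21959 genes, 4001 had no count and 51 no symbol.

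The test on counts was that of edgeR 4.0.16 (R 4.3.3, TMM, filterByExpr, quasi-likelihood F-test, Benjamini-Hochberg, threshold 0.05). The SE is the log2 fold change over the root of F. Levels between genes are FPKM. The alternatives used limma 3.58.1 (all genes with a count, pseudocount 1 or 0.1), limma-voom, DESeq2 1.42.0, other filters, each library left out, and spline corrections for coding length and GC content from GENCODE M21 (GRCm38, by identifier, 99.7% of tested genes), with or without mean expression. Code was tested on simulated data. The 9 genes and all lists were chosen with earlier results of these data known. All members are named. Of each pathway list the genes that passed are named, or the 5 with the smallest p where more than 5 passed. P2ry12, Gsdmd, Il18, Gnai2, Gnao1, Adcy5, Entpd3, Entpd6, the single marker genes and the genes too low to test were named after their values were seen. Python 3.11.15 with scipy 1.17.1 ran the permutation tests.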

Additional observations from a re-analysis of the deposited data

How the results depend on the processing

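P2rx7, Entpd2 and Nt5e kept their direction and passed in every alternative that tested them. On log2(FPKM + 1) and log2(FPKM + 0.1), 6938 and 6906 genes passed as higher and 1315 and 1311 as lower, against 3853 and 3608, and with coding length, GC content and mean expression corrected 2290 passed as lower. On these 2 FPKM scales P2rx4 was at 0.42 and 0.49, P2ry1 at 0.14 and 0.27, Adora2a at 0.18 and 0.80, Adora2b at 0.25 and 0.33, and Adora1 passed at 0.94 and 1.03. On log2(FPKM + 1), 19 pathway genes passed as higher and 4 as lower, against 6 and 9 of 44 tested by edgeR. More pathway genes were tested on that scale, where 38.6% of all tested genes passed as higher. After the length and GC correction P2rx4 was at 0.18, P2ry1 at 0.22 and Adora1 at 0.78, and with mean expression added P2rx4 was at 0.36 and Adora1 at 1.05. By limma-voom Adora2a was at 0.87. By the DESeq2 Wald test 1 of the 9 genes passed as lower, Entpd1 at -1.04. With 1 library left out, 2881 to 4560 genes passed as higher and 2630 to 4415 as lower, and 0 to 3 of the 9 genes passed as lower. P2rx4 then ranged from -0.35 to 0.00, Adora2a from -0.57 to 0.34, Adora2b from -0.66 to -0.08 and Entpd1 from -1.33 to -0.67, and 3 to 9 pathway genes passed as higher. The cause of these changes was not tested. The 4 ratios kept their direction in all alternatives run, which for Adora2a to Adora1 is no check of stability. Without a pseudocount that ratio could not be taken in control replicate 5, where its ceiling of 0.0157 lay below every CCI ratio. No paired analysis was possible because the groups share no replicate numbers. Adora2a, Entpd2 and Enpp3 rest on few counts.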
